A study of Mus musculus with 5 samples.

Results

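Notch signalling passes between touching cells. A ligand of the Delta-like (Dll) or Jagged (Jag) family on one cell binds a Notch receptor on its neighbour, the receptor is cut, and its inner part enters the nucleus, where it joins the DNA-binding protein RBPJ and switches on target genes. Among the best known targets are the Hes and Hey genes, whose basic helix-loop-helix proteins repress transcription. In skin, the pathway is known for its part in the fate of keratinocytes and hair follicle cells. Trimethylation of lysine 27 of histone H3 (H3K27me3), which Polycomb complexes lay down, accompanies repressed promoters, often as broad domains over developmental genes.

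The genes described here are 10 of the 55450 genes annotated in GENCODE release M21, chosen by name. They comprise 4 ligands, Dll1, Dll4, Jag1 and Jag2, and 6 genes of the target families, Hes1, Hes5, Hes6, Hey1, Hey2 and Heyl. Hes6 is placed with them by family, and is known more as an opponent of Hes1 than as a Notch target. H3K27me3 ChIP-seq was performed on cultured dermal fibroblasts of wild-type mouse embryos, with 2 libraries of each of the stages E14.5 and E18.5 as the paper names them, and the question was where the mark was removed while fibroblast progenitors differentiate. The sample labels give these stages as E14 and E17, and they describe DMEM medium, sonication and an Ion Torrent kit. The methods section of the paper describes culture in AmnioMAX, enzymatic shearing and Illumina sequencing. The mice were of C57BL/6 background according to the methods. The sex and number of embryos behind a library are not given in the sources used here, nor is it said that replicates come from separate cultures, so the spread between replicates may be technical. The cells were expanded in culture before the assay and are a bulk population, in which fewer marked cells and less mark per cell cannot be told apart.

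The authors called peaks in each library separately, and each peak carries a fold enrichment over the local background. For E14.5 the lists comprised 21546 and 16574 peaks, for E18.5 only 10429 and 7107, so a gene had fewer peaks to meet at E18.5 in any case. The methods state a common target depth to which E18.5 wild-type data were subsampled. The lists hold no read counts, so the depth behind each of them could not be checked. A missing peak means that the signal stayed under the threshold of that list. As a check of the cell type, none of 8 fibroblast genes (Col1a1, Col1a2, Col3a1, Pdgfra, Dcn, Lum, Twist2 and Vim) had a peak as near as 3000 bp to a start site in any list, whereas of 13 genes of keratinocytes, endothelial, immune, pigment, Schwann and muscle cells 6 had one in each E14.5 list and 4 in each E18.5 list. Of these 13, Cdh1, Kdr, Sox10 and Myod1 had one in all 4 lists, and 7, among them Krt5 and Krt14, had none. Over all protein-coding genes, 74.1% had no such peak in any list, so a gene without one is the common case. The share with one in both E14.5 lists was 19.5%, and in both E18.5 lists 12.2%. The mark is not a measure of expression, so this check does not show which cells were present. A gene is called marked when a peak overlaps a window reaching 3000 bp to each side of one of its start sites. The covered length is the number of bases in those windows that lie in peaks. With 2 libraries against 2, an exact permutation test has 3 splits and cannot go below p = 0.333, so covered lengths of the stages are compared by whether they overlap.

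Of the 10 genes, 7 were marked in both E14.5 lists, namely Dll4, Dll1, Jag2, Hes5, Hey1, Hey2 and Heyl. The share of protein-coding genes marked in this way was 19.5% (11.6% of all annotated genes). In both E18.5 lists, 6 genes were marked (12.2% of protein-coding genes), the same 6 as in all 4 lists (12%). They were 6 of the 7 genes marked at E14.5, for which the share over protein-coding genes was 61.9%. Heyl was the exception, with a peak in E18.5 replicate 1 and none in E18.5 replicate 2, a pattern of 14.3% of the protein-coding genes marked at E14.5. The other 3 genes, Jag1, Hes1 and Hes6, had no peak in any list (30% of the 10 genes, against 74.1% of protein-coding genes). None of the 7 genes marked at E14.5 was unmarked in both E18.5 lists, where 23.8% of the protein-coding genes marked in both E14.5 lists were. Thus 3 of 4 ligands and 3 of 6 target-family genes were marked throughout. With peaks of a −log10 q-value of at least 5, or with lists shortened to equal covered length, 4 of the genes were marked in both E14.5 lists (Dll1, Dll4, Hes5 and Jag2). The share of protein-coding genes is not given for these 2 settings, so this count cannot be set against it.

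**Figure D1:**
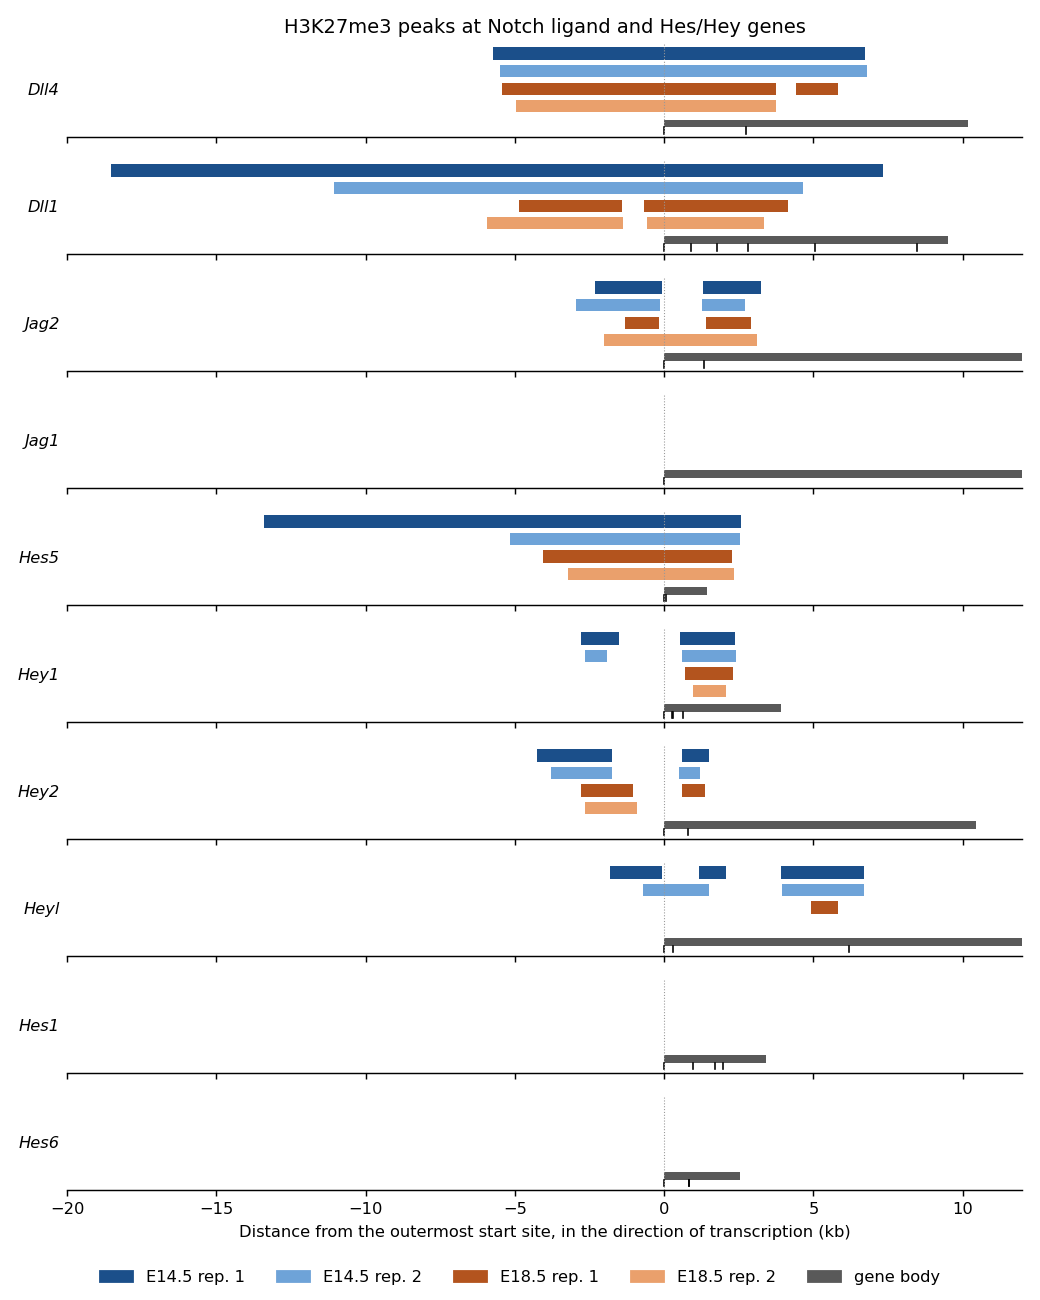
Peaks of each list at the 10 genes, drawn to scale against the distance from the outermost start site (kb, in the direction of transcription). Coloured bars are peaks of the 4 libraries, grey bars gene bodies (cut at 12 kb) and black ticks annotated start sites. At Dll4, Dll1 and Hes5 there is a peak across the outermost start site in all 4 lists, and Jag2 has 1 in E18.5 replicate 2 and peaks on both sides in the other lists. Hey1 has an inner peak alone at E18.5, Hey2 an upstream peak alone in E18.5 replicate 2, and Jag1, Hes1 and Hes6 have none.

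The sequences before the start sites of 4 genes are shown because they stand for the patterns found. The Hes5 and Dll4 start sites lay inside a peak in every list, the Hey2 start site lay outside every peak with a peak upstream of it in all 4 lists, and Jag1 had no peak. Each is the stretch of 250 bases before a RefSeq start site (GRCm38.p6), written 5′ to 3′ on the strand of the gene, with the motif GTGGGAA and its reverse complement TTCCCAC, the core recognised by RBPJ, in capitals. Hes5 lies at chr4:154960673-154960922 (plus strand), Hey2 at chr10:30842784-30843033 (minus strand), Dll4 at chr2:119325534-119325783 (plus strand) and Jag1 at chr2:137116521-137116770 (minus strand).
Hes5: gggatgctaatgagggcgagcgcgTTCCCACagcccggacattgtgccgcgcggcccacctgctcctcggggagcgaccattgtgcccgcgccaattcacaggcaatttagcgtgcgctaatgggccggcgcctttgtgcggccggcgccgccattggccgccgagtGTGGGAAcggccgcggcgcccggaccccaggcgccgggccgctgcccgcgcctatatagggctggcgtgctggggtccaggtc
Hey2: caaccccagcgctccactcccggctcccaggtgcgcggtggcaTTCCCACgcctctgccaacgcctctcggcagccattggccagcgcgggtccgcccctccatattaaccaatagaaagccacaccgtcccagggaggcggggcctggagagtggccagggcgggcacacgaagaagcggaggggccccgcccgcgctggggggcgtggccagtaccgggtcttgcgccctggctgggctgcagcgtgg
Dll4: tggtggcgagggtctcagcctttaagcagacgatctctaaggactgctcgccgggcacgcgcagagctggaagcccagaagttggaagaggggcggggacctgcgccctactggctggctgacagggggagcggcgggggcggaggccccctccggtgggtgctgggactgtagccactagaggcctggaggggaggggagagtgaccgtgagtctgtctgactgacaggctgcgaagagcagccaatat
Jag1: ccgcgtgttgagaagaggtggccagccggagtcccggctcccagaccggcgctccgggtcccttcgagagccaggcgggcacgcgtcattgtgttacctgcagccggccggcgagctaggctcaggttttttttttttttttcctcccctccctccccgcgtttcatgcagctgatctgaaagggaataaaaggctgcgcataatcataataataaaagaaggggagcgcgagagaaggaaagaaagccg

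The promoter table held 9 promoters for 7 of the genes (Hes5, Hes6, Hey2, Dll1, Dll4, Jag1 and Jag2), each of 300 bases, 250 before and 50 after a start site. The RBPJ motif was found, on either strand, in 2 of these, those of Hes5 and Hey2, each with 2 matches. The first Hes5 match began at -226 and the second at -83 relative to the start site, and the Hey2 matches began at -207 and -4, the last of which runs past the end of the printed stretch. Of 21263 promoters of protein-coding genes, 6.07% held the motif. A match is a description of the letters and not evidence of binding. The number of CpG dinucleotides in the promoter did not separate marked from unmarked genes. It was 41 at Hes5, 29 at Hey2, 24 and 15 at the 2 promoters of Dll1, 17 at Dll4 and 63 at Jag2, all of them marked genes. It was 22 at Jag1 and 21 and 14 at Hes6, which had no peak. The median promoter held 13. The 300 bases of the Hes5, Dll1 and Dll4 promoters lay wholly inside peaks in all 4 lists. Those of Hey2 lay outside peaks in all 4 lists, and those of Jag2 were inside a peak in E18.5 replicate 2 alone.

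Dll4 encodes the ligand best known for the choice of tip cells in growing blood vessels. It carried the highest ranked peak of the group in each of the 4 lists (chromosome 2 from 119325784 to 119335962, plus strand, GRCm38). Within the lists, its highest peak had percentiles of fold enrichment of 99.5 and 99.3 among E14.5 peaks and of 97.3 and 92.5 among E18.5 peaks. The windows were covered over 8755 bp in both E14.5 lists, which is their whole length, and over 8078 and 6749 bp at E18.5. Both E18.5 values were below both E14.5 values, with a mean of 8755 bp in the E14.5 lists, against 7414 ± 940 bp (SD, n = 2) in the E18.5 lists, a change of -15.3%. Leaving out E18.5 replicate 2 made it -7.73%, leaving out E18.5 replicate 1 made it -22.9%, and it was 0% around the outermost start site alone. The upstream edge stayed within 1 kb, with 5748 and 5501 bp of the peak upstream of the gene for E14.5, and 5419 and 4961 bp for E18.5. The part of the gene body in peaks was 6721 and 6793 bp in the E14.5 libraries, compared with 5152 and 3749 bp in the E18.5 libraries. In the E18.5 lists the main peak ended at 3747 and 3748 bp after the start site, 1 bp apart, where the E14.5 peaks had run on to 6720 and 6792 bp. E18.5 replicate 1 held a further peak of 1404 bp in the body, at the 49.2 percentile. The processed transcript Gm14207, on the other strand with its start 410 bp from that of Dll4, shares the peak in all 4 lists, so the mark cannot be assigned to one of these genes.

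Dll1, a ligand of somite formation and early neural development, lay in the widest domain of the group at E14.5 but not at E18.5, when peaks at Dll4 were wider in total (chromosome 17 from 15367354 to 15376872, minus strand). Its peaks had a total width of 25867 and 15719 bp among E14.5 libraries, and of 8262 and 8457 bp among E18.5 libraries. Each E14.5 list had 1 unbroken peak, reaching 18540 and 11066 bp upstream of the gene. Both E18.5 lists had 2 peaks in its place, parted by a gap just upstream of the outermost start site. The upstream one spanned -4876 to -1421 in replicate 1 and -5932 to -1389 in replicate 2, and the other began at -670 and -561 and ran into the gene. This break appeared at nearly the same place in both E18.5 lists and in neither E14.5 list. The covered length of the windows was 10327 and 7653 bp in the E14.5 lists, against 6386 and 5525 bp in the E18.5 lists. The stages did not overlap, with means of 8990 ± 1891 and 5956 ± 609 bp (SD, n = 2 each) and a change of -33.8%. Without E14.5 replicate 1 the change was -22.2%, and with the outermost start site alone it was -13.1%. The highest peak stood at the 95.3 and 92.7 percentile for E14.5, and at the 88.7 and 84.6 percentile for E18.5. In E14.5 replicate 1 the peak also touched Fam120b, and in all lists it touched the lincRNA A930024N18Rik, which starts 1872 bp from Dll1 on the other strand.

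Jag2, the Jagged ligand known from limb and palate development, had its peaks on the sides of the outermost start site (chromosome 12 from 112907819 to 112929776, minus strand). One peak lay upstream, from -2304 to -84 and from -2942 to -151 in the E14.5 lists and from -1316 to -175 in E18.5 replicate 1. The other lay inside the gene, chiefly over intron, from 1297 to 3260 and from 1275 to 2700 at E14.5 and from 1385 to 2896 in E18.5 replicate 1. In E18.5 replicate 2 a single peak of 5134 bp bridged the start site, from -2018 to 3115. The covered length was 4185 and 4218 bp in the E14.5 libraries, compared with 2654 and 5134 bp in the E18.5 libraries. The E18.5 libraries fell on opposite sides of the E14.5 values, so the change of -7.32% in the mean lay within the spread of the E18.5 replicates (3894 ± 1754 bp, SD, n = 2). Leaving out E18.5 replicate 1 turned it to 22.2%, and leaving out E18.5 replicate 2 gave -36.8%. The highest peak stood at the 97.4 and 94.1 percentile among E14.5 libraries and the 84.6 and 74.2 percentile among E18.5 libraries. Percentiles were lower in both E18.5 lists at 73.4% of the protein-coding genes marked throughout.

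Jag1, the ligand gene mutated in Alagille syndrome, had no peak near either of its start sites or in its body (chromosome 2 from 137081456 to 137116644, minus strand). The nearest peak lay 115 kb away in E14.5 replicate 2, a peak of 264 bp at Slx4ip. In the other 3 lists it lay 372 kb away at Snap25. No other gene of the group stood as far from a peak.

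**Figure D2:**
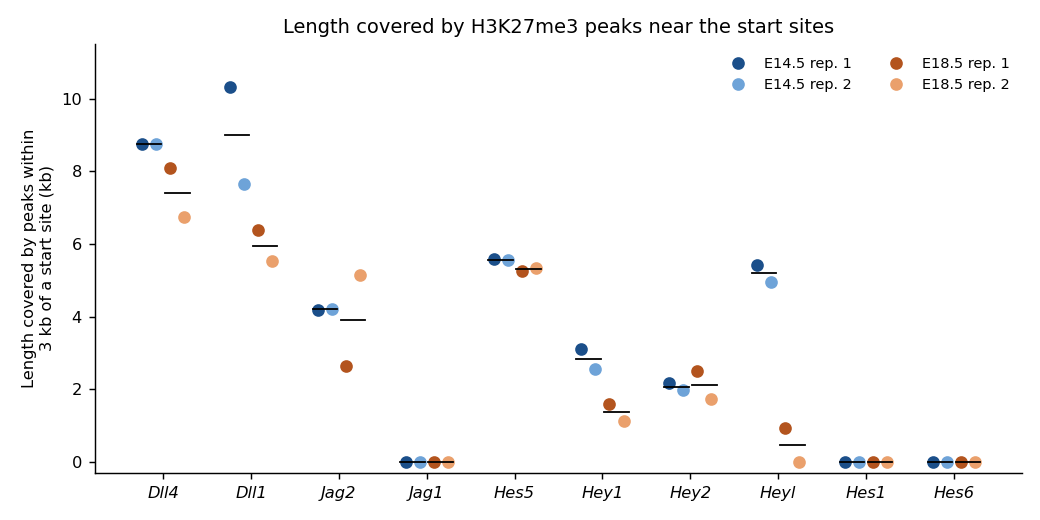
Length covered by peaks within 3 kb of a start site (kb) for the 10 genes, with 1 point per library and a bar at the mean of the 2 libraries of a stage. The E18.5 points lie below the E14.5 points for Dll4, Dll1, Hes5, Hey1 and Heyl, and the stages overlap for Jag2 and Hey2.

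Hes5, a repressor that keeps neural progenitors from differentiating, had the smallest change among the genes whose stages did not overlap (chromosome 4 from 154960923 to 154962371, plus strand). The whole gene body of 1449 bp was inside a peak in all 4 lists. Its windows were covered over 5576 and 5554 bp by the E14.5 lists, and over 5267 and 5331 bp by those of E18.5. Both later values were below both earlier ones, with means of 5565 ± 15.6 and 5299 ± 45.3 bp (SD, n = 2 each). Bases covered in both E14.5 lists numbered 5554 in its windows, and 94.8% of them were covered in both E18.5 lists, against a median of 69.1% over the 7 genes and of 30.6% over 4191 protein-coding genes with such bases. The stages lay further apart in the extent outside the windows. The peak was 15969 and 7724 bp wide in the E14.5 lists, against 6334 and 5548 bp wide in the E18.5 lists, both E18.5 values below both E14.5 values. Its upstream part measured 13393 and 5170 bp for E14.5, and 4067 and 3217 bp for E18.5, whereas its downstream end stayed close, with 2575 and 2553 bp after the start site in the earlier lists and 2266 and 2330 bp in the later ones. The change of covered length was -4.78% in the 3000 bp windows and -20.6% with windows of 5000 bp. The percentile of the peak was 97 and 97.3 in the E14.5 libraries, compared with 94.5 and 91.6 in the E18.5 libraries. The same peak reached the neighbouring Pank4, whose start site lies 3200 bp from that of Hes5, and the transcript Gm20421 on the other strand. By the 4 percentiles, the nearest of 2644 other protein-coding genes marked in all lists were Pank4, at a Euclidean distance of 0 because it shares the peak, Zfp423 on chromosome 8 at 0.801 and Fbll1 on chromosome 11 at 0.85 percentile points. This likeness is one of ranks in 4 lists and says nothing of shared control.

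Hey1, a repressor that acts with Hey2 in heart and vessel development, kept the peak inside the gene and had no upstream peak at E18.5 (chromosome 3 from 8663359 to 8667256, minus strand). The peak inside the gene ran from 522 to 2359 and from 595 to 2404 after the start site at E14.5. At E18.5 it ran from 690 to 2293 and from 952 to 2080. It covered exon and intron alike, with 1252 and 1297 exonic bp among E14.5 libraries, and 1127 and 763 among E18.5 libraries. The upstream peak, of 1284 and 736 bp in the E14.5 lists, stood at the 41.5 and 51.1 percentile there. The covered length was 3122 and 2546 bp in the E14.5 lists, against 1604 and 1129 bp in the E18.5 lists. The stages did not overlap, and the means of 2834 ± 407 and 1366 ± 336 bp (SD, n = 2 each) differed by -51.8%. The change was -25.1% with equal numbers of top peaks in each list and -24.5% with windows of 1000 bp. Its highest peak stood at the 94.5 and 73.2 percentile for E14.5, and at the 78.2 and 51.3 percentile for E18.5, so by rank the stages overlapped.

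At Hey2, the other heart and vessel repressor, covered length did not separate the stages and the position of the peaks did (chromosome 10 from 30832359 to 30842801, minus strand). The covered length was 2177 and 1971 bp in the E14.5 libraries, compared with 2506 and 1746 bp in the E18.5 libraries. The change of 2.51% was far smaller than the spread of the E18.5 replicates (2126 ± 537 bp, SD, n = 2), and it turned to -57.5% with peaks of a −log10 q-value of at least 3. The upstream peak spanned -4247 to -1742 and -3784 to -1738 at E14.5, and -2799 to -1037 and -2642 to -897 at E18.5. Both of its edges were thus nearer to the start site in both E18.5 lists than in either E14.5 list. As a result, 701 bp of the windows were covered in both E18.5 lists and in neither E14.5 list. As many such bases were found at 9 of 4270 protein-coding genes marked in both E14.5 lists, Hey2 included, or 0.211%, and any such base at 1.57%. This count was looked up after the value was seen, and none of the other 6 marked genes of the group had such a base. The peak inside the gene, of 918 and 708 bp at E14.5, was 743 bp in E18.5 replicate 1 and absent from replicate 2. In E18.5 replicate 2 the upstream peak had a −log10 q-value of 2.97, and it stood at the 38.1 percentile, the lowest percentile of a highest peak in the group.

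Heyl, the remaining Hey-family repressor, had the largest change of covered length in the group (chromosome 4 from 123233556 to 123249875, plus strand). It was 5432 and 4946 bp at E14.5, 923 bp in E18.5 replicate 1 and 0 bp in E18.5 replicate 2. The means were 5189 ± 344 and 462 ± 653 bp (SD, n = 2 each), a change of -91.1%. Both E18.5 libraries were far below both E14.5 libraries. Around the outermost start site, E14.5 replicate 1 had peaks from -1825 to -83 and from 1167 to 2067, and E14.5 replicate 2 a single peak from -716 to 1489. Neither E18.5 list had a peak there. A second domain, at an annotated internal start site, was 2788 and 2740 bp wide at E14.5 and lay mostly in intron. All that was called at E18.5 was 923 bp of this domain, in intron, in replicate 1, at the 54.2 percentile. With the outermost start site alone, or with peaks of at least 1000 bp alone, Heyl counts as marked in both E14.5 lists and unmarked in both E18.5 lists.

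Hes1, a target of Notch in many cell types, and Hes6 had no peak in their windows or bodies in any list (chromosome 16 from 30064384 to 30067796, plus strand, and chromosome 1 from 91411483 to 91414038, minus strand). The nearest peak downstream of Hes1 lay 6.55 and 6.56 kb from a start site among E14.5 libraries, and 54.4 and 54.3 kb away among E18.5 libraries. The E14.5 peaks there were 533 and 554 bp wide and ranked low, at the 39.6 and 9.34 percentile, and no E18.5 list had a peak in that place. Downstream of Hes6, all 4 lists had a peak at similar distances, of 5.6 and 6.52 kb in the E14.5 lists, against 6.81 and 6.58 kb in the E18.5 lists. It was 2154 and 1263 bp wide for E14.5, and 414 and 524 bp for E18.5. Neither place overlapped the window or body of a protein-coding gene.

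**Figure D3:**
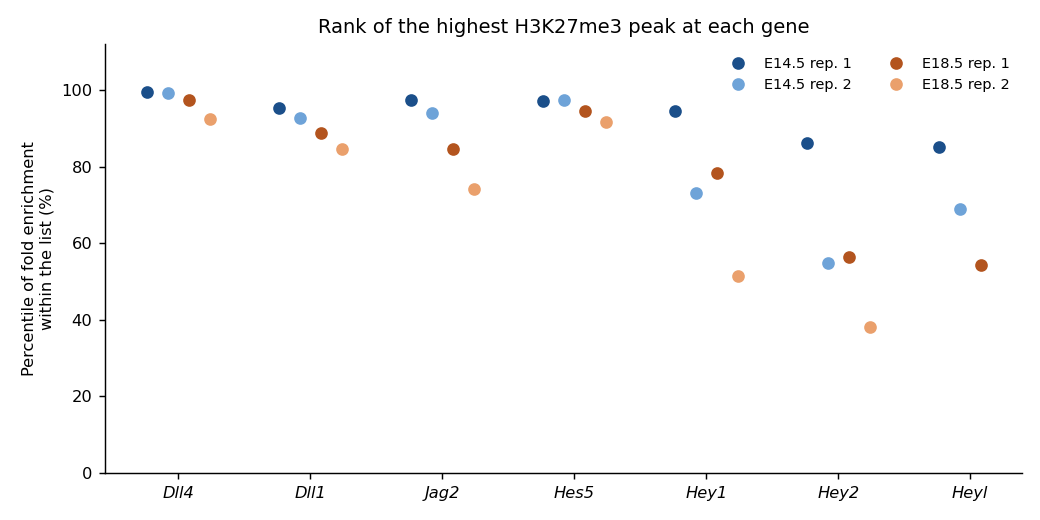
Percentile of fold enrichment, within its own list, of the highest peak at each of the 7 marked genes, with 1 point per library. Dll4 is highest in each list, and Heyl has no point for E18.5 replicate 2. For Dll4, Dll1, Jag2 and Hes5, both E18.5 points lie below both E14.5 points.

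Fold enrichment cannot be compared between lists, but percentiles can be set side by side. They depend on the length of the list, and the E18.5 lists were shorter. The highest peaks of the marked genes had a median percentile of 95.3 and 92.7 in the E14.5 lists and of 84.6 and 79.4 in the E18.5 lists. Over all protein-coding genes with a peak in the list, these medians were 83.7, 82.1, 78.6 and 72.9. The order was alike in the lists, with Dll4 first in all 4 and Hey2 or Heyl last. Among the 6 genes marked throughout, 4 (Dll4, Dll1, Jag2 and Hes5) had a lower percentile in both E18.5 lists than in both E14.5 lists, close to the 73.4% of protein-coding genes marked throughout that did. By place from the top of the list, the stages overlapped at Dll1 (1023 and 1210 at E14.5, 1174 and 1092 at E18.5). They also overlapped at Hes5 (657 and 455, 578 and 598). Dll4 (103 and 114, 284 and 531) and Jag2 (568 and 975, 1606 and 1835) stood lower at E18.5 by place too.

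Covered length was lower in both E18.5 lists than in both E14.5 lists at 5 of the 7 marked genes (exact permutation test, two-sided, p = 0.333 for each) and overlapped at Hey2 and Jag2 (p = 1 for each). The share over the protein-coding genes marked in both E14.5 lists was 84.2%, so this count is no more than the lists as a whole would give. Among the genes marked in all 4 lists it was 4 of 6, against 77.8%. None of the 7 genes had more covered length in both E18.5 lists, as 0.328% of protein-coding genes did. The median change was -15.3% over the 7 genes and -58.2% over 4270 protein-coding genes, a difference that was not tested. The change at Heyl was more negative than this second median, and that at Hey1 was close to it. With the genes marked in all 4 lists alone, the medians were -11.3% over 6 genes and -37.8% over 2645. Covered length stops at the window edge, so peak lost outside the windows does not enter any of these medians. At E14.5 the windows of Dll4 were covered over 100% in both lists, and those of Hes5 over 92.2% and 91.8%. The part of this limit in the difference was not tested. The median of the 7 genes was -29% without E18.5 replicate 2, and it moved between -37.2% and -5.77% over 16 other settings. The median over protein-coding genes is not given for those settings, so the difference is known for the lists as deposited alone. In each list, the median rank of the marked genes with a peak (6 in E18.5 replicate 2) was also above that of protein-coding genes. The latter set takes any protein-coding gene with a peak in that list, whether or not it was marked in both E14.5 lists. The part of rank in the differences of the median change was not tested.

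**Figure D4:**
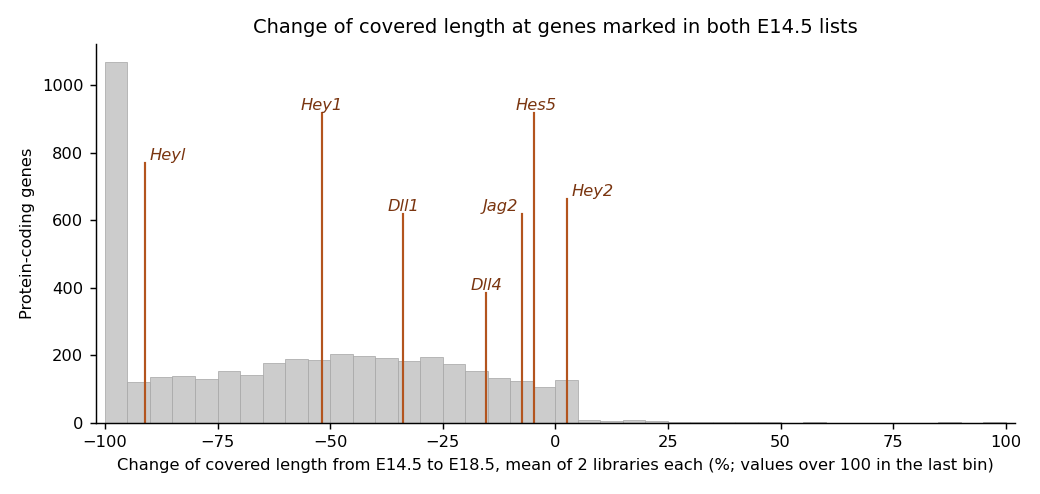
Change of covered length from E14.5 to E18.5 (%, mean of 2 libraries per stage) for the 4270 protein-coding genes marked in both E14.5 lists, in bins of 5 percentage points, with the 7 marked genes of the group as lines whose height has no meaning. Heyl, at -91.1%, is next to the lowest and tallest bin, and Hey2, Hes5 and Jag2 lie near 0.

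The position of the peaks relative to the start site divided the marked genes. The outermost start site was inside a peak in all 4 lists at 3 genes, Dll4, Dll1 and Hes5, and outside every peak at 2, Hey1 and Hey2. At Jag2 and Heyl it was inside a peak in 1 library each. Among protein-coding genes marked in all 4 lists, 44.5% had the outermost start site inside a peak in all of them. The 3 genes with a covered start site also had the largest shares of bases kept in both E18.5 lists, Dll1 by a small margin over Jag2. Of the window bases covered in both E14.5 lists, 94.8% at Hes5, 77.1% at Dll4 and 71.8% at Dll1 were covered in both E18.5 lists, against 69.1% at Jag2, 47.7% at Hey2, 45.1% at Hey1 and 0% at Heyl. The share covered in neither E18.5 list gave another order, with more lost at Dll1 (16.1%) than at Jag2 (8.04%) and Hey2 (12.1%). These orders are a description of 7 genes, noticed in the values.

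The other genes of the pathway were taken from a list of 43. Of these, 13 (30.2%) were marked in both E14.5 lists, against 19.5% of protein-coding genes. In both E18.5 lists 12 were marked (27.9%, against 12.2%), all 12 at both stages, and none was marked at E18.5 alone. In 26 of the 43 genes no list had a peak, a smaller share than the 74.1% of protein-coding genes. The 4 genes Notch2, Psen2, Rbpj and Bhlhe41 had a peak in E14.5 replicate 1 alone. Covered length was lower in both E18.5 lists than in both E14.5 lists at 10 of the 13, where the share over marked protein-coding genes was 84.2%. The median change was -35.8%, against -58.2% over those genes. The counts by role are of few genes and are given against the same 19.5% marked in both E14.5 lists and 12% marked in all 4. All 4 ligand-like genes (Dll3, Dlk1, Dlk2 and Dner) were marked in all 4 lists, as were 3 of 6 further Hes-type genes (Hes2, Hes3 and Helt) and 3 of 11 regulators (Dtx1, Nrarp and Mib1). Of 8 genes for receptor processing, among them the secretase subunits, none was marked in both E14.5 lists, nor was any of 4 glycosyltransferases. Of 6 genes of the nuclear complex, Rbpjl alone was marked throughout.

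The receptors differed from one another in their peaks. Notch1 had no peak in any list, and Notch2 had 604 bp covered in E14.5 replicate 1 alone. Notch3, a receptor of mural cells of vessels, had 1928 and 238 bp of its windows covered in the E14.5 libraries, compared with none in the E18.5 libraries. A peak remained in its body in every list, of 4360 and 2807 bp among E14.5 libraries, and 1278 and 959 bp among E18.5 libraries, so the gene is unmarked at E18.5 by the rule for start sites alone. Notch4, a receptor of endothelial cells, had 2232 and 2221 bp covered in the E14.5 lists, against 557 and 763 bp in the E18.5 lists. For both Notch3 and Notch4, the E18.5 values were below the E14.5 values.

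Nrarp, a Notch-induced inhibitor of the pathway, resembled Hes5 in its small change within the windows, with 6001 and 5834 bp covered for E14.5, and 5660 and 5609 bp for E18.5. At Helt the values were 7337 bp in both E14.5 lists and 6927 and 7282 bp in those of E18.5. Rbpjl, a relative of Rbpj, had 6069 bp in 3 lists and 5726 bp in E18.5 replicate 2. Peak outside the windows is not counted in these values. At Hes5 the change was -4.78% in the 3000 bp windows and -20.6% with windows of 5000 bp. The values of the stages lay further apart at Dtx1, a ubiquitin ligase that regulates Notch, with 16034 and 11305 bp in the E14.5 libraries, compared with 8865 and 6975 bp in the E18.5 libraries. Dll3, a Delta-like protein that blocks signalling in the cell that makes it, had 8812 and 8940 bp among E14.5 libraries, and 6113 and 5022 bp among E18.5 libraries. Dner, a ligand-like protein of neurons, had 3020 and 2805 bp in the E14.5 lists, against 1559 and 1274 bp in the E18.5 lists, and at Dlk1, an inhibitor of adipocyte differentiation that is imprinted, the values were 4913 and 4444 bp and 2308 and 3511 bp. At Dlk2 and Mib1, by contrast, the stages overlapped. Those of Rbpjl overlapped in the windows alone, since its gene body was covered over 9821 and 9112 bp by the E14.5 lists and over 5148 and 3125 bp by those of E18.5.

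**Figure D5:**
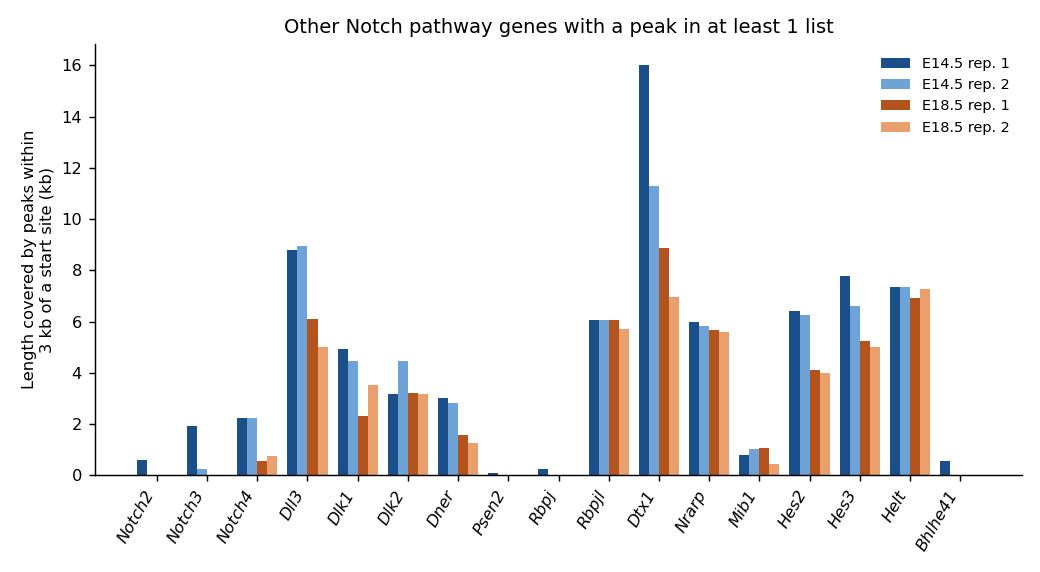
Length covered by peaks within 3 kb of a start site (kb) at the 17 other Notch pathway genes with a peak in at least 1 list, with 1 bar per library. Notch2, Psen2, Rbpj and Bhlhe41 have a bar for E14.5 replicate 1 alone, Notch3 has bars at E14.5 alone, and the other 12 genes have bars in all 4 lists.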

How the data were processed

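H3K27me3 ChIP-seq peak lists of 4 wild-type libraries were used, and the input library was not analysed here. Per the labels, reads were aligned with Bowtie2 2.3.5.1 to mm10 (GRCm38) and peaks called with MACS2 2.2.7.1. The methods give the broad option with a q-value threshold of 0.01. The control of the peak call is not given in the sources used here, replicates were not pooled, and the methods mention subsampled E18.5 wild-type data without saying whether that covers these libraries. The deposited lists give a fold enrichment (a ratio to local background) and the −log10 of a p-value and a q-value for each peak, averaged over it. They hold no read counts, so depth could not be checked.

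No peak lay beyond a chromosome end of GRCm38. Genes came from GENCODE release M21, and promoters from RefSeq (GRCm38.p6). A peak was assigned by an overlap of at least 1 bp with the 3000 bp either side of any start site. Percentiles are ranks of fold enrichment within a list. One marker gene is not reported here. The genes and gene lists were chosen with earlier results of these data known. The text names all 10 genes, of the other pathway genes the receptors and those marked at a single stage or in all lists, the 3 genes most like Hes5, and genes that share a peak. Genes marked in 1 list, the Hey2 bases and the Maml3 peaks were chosen after their values were seen. Alternatives were 14 planned settings (−log10 q-value of at least 3 and 5, peaks of at least 1000 bp, equal numbers of top peaks, windows of 1000 and 5000 bp, outermost start sites, an overlap of 200 bp, gene bodies included, pairing by replicate number, each library left out) and 2 added after seeing the data (−log10 p-value of at least 5, equal covered length). Calculations used Python 3.11.15, numpy 2.4.6 and scipy 1.17.1, and were tested on simulated data.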

Additional observations from a re-analysis of the deposited data

How the results depend on the processing

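The number of genes marked in both E14.5 lists was 6 or 7 in 14 of 16 settings and 4 with a −log10 q-value of at least 5 and with lists of equal covered length. The number marked in both E18.5 lists was 3 with a −log10 q-value of at least 5. Heyl became unmarked in both E18.5 lists (1 gene in place of 0) with peaks of at least 1000 bp and with outermost start sites, and between 0 and 1 genes did so when a library was left out, the 1 without E18.5 replicate 1. The number with less covered length in both E18.5 lists was 3 with lists of equal covered length and 4 with a −log10 q-value of at least 5. Each of these settings left 4 genes marked in both E14.5 lists. The number was also 4 with windows of 1000 bp and with outermost start sites, where 7 genes were marked in both E14.5 lists. It was 6 with a −log10 q-value of at least 3 and with windows of 5000 bp. Less covered length was found at 5 or 6 of 7 genes when a library was left out. No share over protein-coding genes is given for these settings. The median change of -15.3% was -33.8% and -37.2% with a −log10 q-value of at least 3 and 5, -20.2% with equal numbers of peaks, -24.5% and -21.9% with windows of 1000 and 5000 bp, -5.77% with outermost start sites and -23.6% with gene bodies, and it lay between -29% and -15.3% without single libraries. The threshold of 5 leaves 4 genes in the median. That of 3 leaves all 7, with Hey2 at -57.5%. By gene, the change stayed negative in every setting that gave a value at Hey1 (-60.2% to -24.5%), Heyl (-100% to -82.2%) and Dll1 (-51.5% to -13.1%), was at or below 0 at Hes5 (-20.6% to 0) and Dll4 (-23.6% to 0), and took both signs at Hey2 (-57.5% to 39.1%) and Jag2 (-86.4% to 32.3%). The cause was not tested. Pairing by replicate number (replicate block) gave 7, 6, 0 and 5 genes and -15.3%, the same as without it. The deviations of same-numbered libraries correlated at r = 0.139 over 9083 genes, which are not independent, and the labels do not say that a number marks a shared origin.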

Other observations

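Maml3, a coactivator that joins the Notch and RBPJ complex, had no peak near a start site and peaks inside its body in all 4 lists (chromosome 3 from 51685907 to 52105076, minus strand, GRCm38). These covered 2485 and 1436 bp in the E14.5 lists, against 9034 and 4531 bp in the E18.5 lists, so both E18.5 values were above both E14.5 values. Of 2582 protein-coding genes with a peak in the body in all 4 lists, 13, or 0.503%, had this order. The widest, of 6460 bp in E18.5 replicate 1 and 2729 bp in E18.5 replicate 2, lay in intron and stood at the 63.1 and 37.8 percentile. The peak nearest to the outermost start site began 3506 and 5565 bp after it in the E18.5 lists, outside the window of 3000 bp. In the E14.5 lists the nearest peak began 97851 and 7789 bp after it, so the peaks of the stages lay partly in different places. Maml3 was picked for its values from the list of pathway genes, and no other gene of that list with a body peak in all 4 lists had this order.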
